A study of Saccharomyces cerevisiae with 12 samples.

Results

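Budding yeast strains labelled as lacking the iron regulator Aft1, alone or with its relative Aft2, were compared with wild-type parents in hydroxyurea, and the quantity described here is how far those comparisons differ and what they share. The first strain pair was Y18daft2, labelled as an aft1 aft2 double deletion, over its parent CM3260 (slides ALX035 and ALX038). The second was the aft1 deletion in BY4741 over BY4741 (slides ALX037 and ALX039). All 4 strains had grown in YPD rich medium and then for 2 hours in 200 mM hydroxyurea. Every gene whose spots carry a single gene name was taken, 3127 of the 3127 such genes in the series, on 4 of its 6 slides and in 8 of its 12 scans. The other 2 slides (ALX034 and ALX036) compare Y18daft2 with CM3260 in rich medium without hydroxyurea, and are given beside the results. The strain pairs differ in genotype and in parent, so the effect of the second deletion and that of the strain background cannot be told apart in any difference below. How many isolates of each mutant were grown is not stated in the labels.

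When iron is scarce, yeast relies on the transcription factors Aft1 and Aft2 to switch on a set of genes, the iron regulon. Aft1 mainly drives iron uptake at the cell surface, and Aft2 has a larger share in genes that move iron inside the cell, from the vacuole or into mitochondria. Iron is needed for heme, for iron-sulfur clusters, for desaturation of fatty acids and for ribonucleotide reductase, the enzyme that hydroxyurea inhibits.

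Each value is the log2 ratio of a mutant to its parent, where base 2 is an assumption and the direction is called likely. The base is not given, and base e would make every fold larger than printed. The direction rests on the AFT1 spot of the aft1 slides, which read as deposited 4.05 (strong scan) and 2.41 (weak scan) on ALX037, with the mutant in channel 2, and -4.23 and -2.43 on ALX039, with it in channel 1. Reading the table as channel 1 over channel 2 makes AFT1 low in the aft1 strain. The opposite reading would turn every sign below. Counts of higher and lower genes would change places, and counts without a direction would stay the same. As deposited, the column medians were -0.06 (strong) and -0.36 (weak) on ALX035, -0.09 and -0.53 on ALX038, 0.85 and -0.13 on ALX037, and -0.12 and -0.04 on ALX039. In rich medium they were -0.15 and -0.25 on ALX034 and -0.12 and -0.26 on ALX036. In each quartet of slide values the Y18daft2 slides come first, ALX035 before ALX038, and then the aft1 slides, ALX037 before ALX039.

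The slides of a strain pair resembled each other little over all genes. Across the 3127 genes, which are not independent replicates, Pearson's r was -0.27 between the Y18daft2 slides and 0.38 between the aft1 slides after the shared trend between channels had been removed. ALX038 correlated better with ALX037 of the aft1 pair (0.29) than with its own partner ALX035. As deposited, the Y18daft2 slides correlated at 0.77 although their channels were exchanged, and the aft1 slides at -0.18. The standard deviation over genes was 0.157 in the Y18daft2 pair, 0.207 in the aft1 pair and 0.252 in their difference, against a median standard error (SE) of 0.243 for the difference of a gene. Most genes therefore lay within the error of the slides, and the results below concern the few that stood outside it.

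Between the strain pairs, the mean ratios of all 3127 genes correlated at r = 0.06 (Spearman's rho -0.03). Without AFT1, ENB1 and FIT3 the r was 0.0022. The genes in common were few and named below, as the plot of one pair against the other shows.

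**Figure D1:**
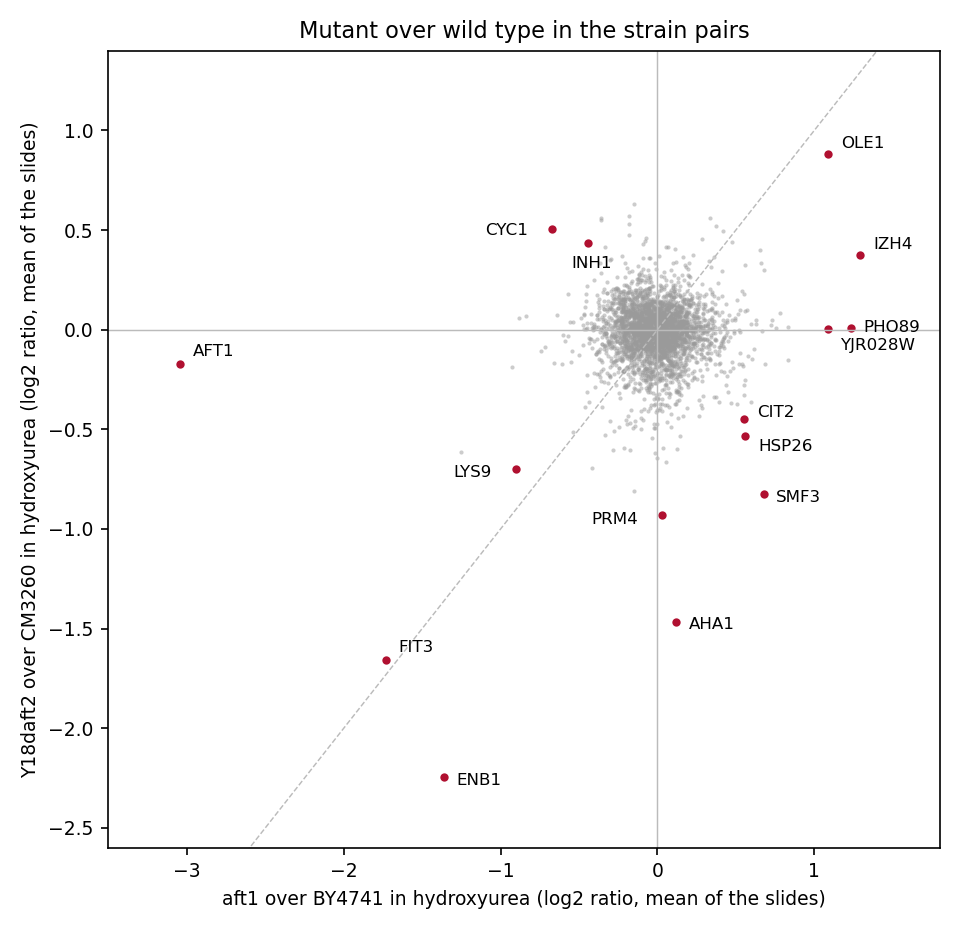
Each point is 1 of 3127 genes. The horizontal axis is the log2 ratio of aft1 over BY4741 and the vertical axis that of Y18daft2 over CM3260, both in hydroxyurea and both means of 2 slides, and the dashed line marks equal ratios. ENB1 and FIT3 lie low and OLE1 high on both axes, AFT1 is low on the horizontal axis alone, and AHA1 is low on the vertical axis alone.

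The strain pairs shared low ENB1 and FIT3, which act in siderophore-bound iron uptake, and high OLE1, the fatty acid desaturase gene. In the mean of both pairs 5 of 3127 genes passed an adjusted p of 0.05 (0.16% of genes tested, limma with Benjamini-Hochberg), with ENB1, FIT3 and AFT1 lower and OLE1 and IZH4 higher. At an unadjusted p under 0.05 there were 70 genes (2.24%). In all, 148 genes were above 0 on all 4 slides (4.73%) and 151 below (4.83%), together 9.56% of genes.

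ENB1 encodes the transporter of the siderophore enterobactin, through which yeast takes up iron bound by bacteria. It read -2.29 and -2.20 on the Y18daft2 slides and -1.29 and -1.44 on the aft1 slides. All 4 slides were low, and the Y18daft2 slides lay below the aft1 slides without overlap. In the mean of both pairs ENB1 fell 3.49-fold, to -1.80 (SE 0.115, n = 4 slides; adjusted p = 0.000434, limma). Each pair passed alone, at a 4.73-fold decrease in Y18daft2 (limma adjusted p = 0.00124) and a 2.57-fold decrease in the aft1 strain (limma adjusted p = 0.0221). The difference between the pairs was -0.88 (SE 0.230, 95% interval -1.41 to -0.36) and did not pass over all genes (unadjusted p = 0.00444, limma adjusted p = 0.999). In rich medium the Y18daft2 slides read -1.27 and -0.999, closer to the aft1 slides than to those of the same strains in hydroxyurea.

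FIT3, a mannoprotein of the cell wall that helps to retain siderophore-bound iron, read -1.35 and -1.97 in Y18daft2 and -1.80 and -1.66 in the aft1 strain. The slides of the pairs overlapped and all 4 were low. It fell 3.24-fold in the mean (-1.70, SE 0.146, n = 4 slides; limma adjusted p = 0.00234). The difference of 0.07 (SE 0.292) had a 95% interval from -0.59 to 0.74, so an unequal effect of up to that size was within the error. FIT3 was lower still in rich medium, at -2.80 and -2.32. ENB1 and FIT3 were the genes at least 2-fold lower on all 4 slides (2 of 3127, 0.064%), and 0 genes were 2-fold higher on all 4.

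OLE1 encodes the stearoyl-CoA desaturase, an iron enzyme that makes unsaturated fatty acids. It read 0.96 and 0.80 on the Y18daft2 slides and 1.14 and 1.03 on the aft1 slides. All 4 slides were high, and the aft1 slides were the higher ones by a narrow margin. OLE1 rose 1.98-fold in the mean (0.99, SE 0.112, n = 4 slides; limma adjusted p = 0.0112) and was the 1 gene at least 1.5-fold higher on all 4 slides (0.032%). By pair, OLE1 passed in the aft1 strain (2.13-fold, limma adjusted p = 0.0481) and not in Y18daft2 (1.84-fold, limma adjusted p = 0.284). Its difference was -0.21 (95% interval -0.72 to 0.30), and turned to 0.37 as deposited and 0.21 with centring alone. In rich medium the Y18daft2 slides were high as well, at 1.20 and 0.83. The value of OLE1 in 1 strong scan in hydroxyurea was an exact zero and was left out.

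IZH4, a membrane protein of the family of progestin and adiponectin receptors with a role in zinc homeostasis, read 0.49 and 0.26 in Y18daft2 and 1.20 and 1.39 in the aft1 strain. Every slide was above 0, and the aft1 slides were clearly the higher. In the mean IZH4 rose 1.78-fold (0.83, SE 0.115, n = 4 slides; limma adjusted p = 0.0394), and alone it passed in the aft1 pair (2.45-fold, limma adjusted p = 0.0247) and not in Y18daft2 (1.30-fold, limma adjusted p = 1). The difference of -0.92 (SE 0.230) did not pass over all genes (limma adjusted p = 0.999, unadjusted p = 0.00352).

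The calls of OLE1 and IZH4 in the mean needed every slide. Leaving out any 1 of the 4 slides put OLE1 at limma adjusted p of 0.058 without ALX035, 0.0593 without ALX037, 0.0627 without ALX038 and 0.121 without ALX039, with the value still between 0.95 and 1.02. IZH4 likewise went to 0.158, 0.129, 0.078 and 0.418. With the columns as deposited, OLE1 in the mean stood at 0.92 (limma adjusted p = 0.153) and IZH4 at 0.71 (limma adjusted p = 0.916). ENB1 and FIT3 passed in the mean without any 1 slide, but with all columns and slide as a random block FIT3 did not (limma adjusted p = 0.124).

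Other genes were on one side of 0 on all 4 slides without passing. LYS9, of lysine synthesis, read -1.13 and -0.27, then -0.76 and -1.04 (mean -0.80, SE 0.151, limma adjusted p = 0.263), and was also low in rich medium at -0.86 and -0.91. CTP1, the mitochondrial citrate transporter, had a mean of -0.53 (SE 0.139). ATX1, the copper chaperone that serves the multicopper oxidase of iron uptake, read -0.50 and -0.51, then -0.31 and -0.25, with both slides of each pair close together. On the high side stood fatty acid synthesis, with FAS1, a subunit of fatty acid synthase, at a mean of 0.46 (SE 0.125), and ACC1, acetyl-CoA carboxylase, at 0.44 (SE 0.129). Further genes with all slides above 0 were TIR2 and TIP1, mannoproteins of the cell wall, at 0.50 and 0.37, PDR5, a multidrug transporter, at 0.37, and ERG28, a scaffold of sterol synthesis, at 0.36. None of these passed, with limma adjusted p of 0.263 for LYS9 and 0.9998 for the rest.

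**Figure D2:**
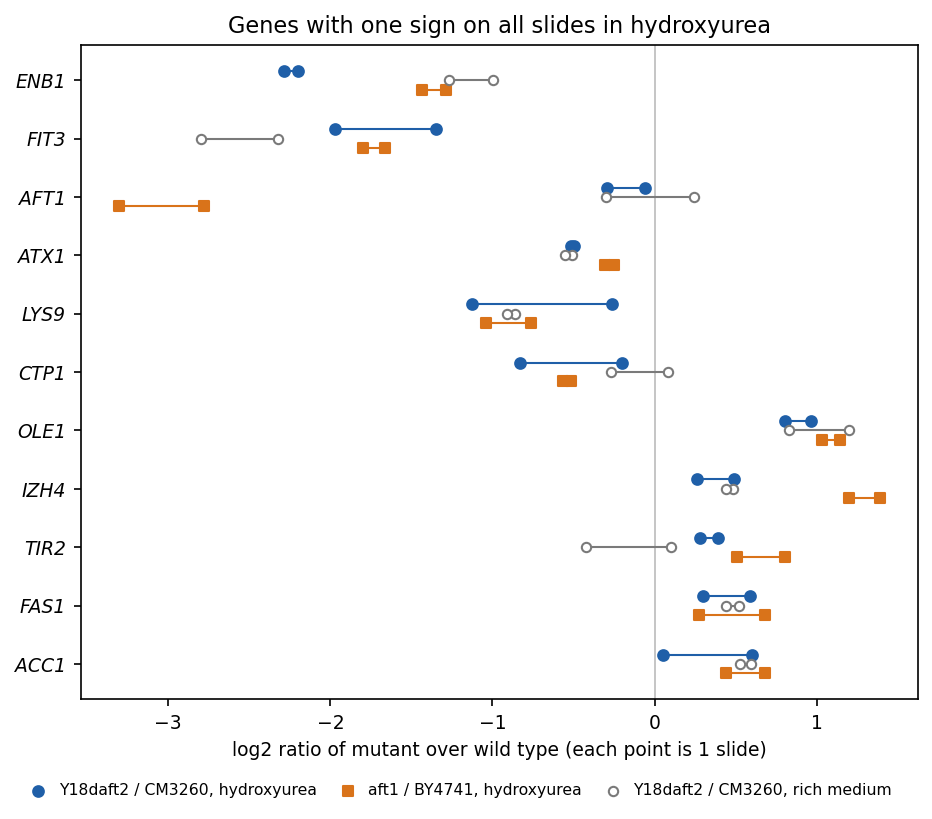
Log2 ratios of mutant over wild type, 1 point per slide, for genes with one sign on all 4 slides in hydroxyurea, with the rich-medium slides of Y18daft2 as open circles and lines joining the slides of a group. ENB1 and FIT3 sit below -1.2 on every slide in hydroxyurea, and OLE1 sits between 0.80 and 1.14.

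In the list that joins fatty acid genes with the IZH family, 9 of 17 genes were measured and 5 were above 0 on all 4 slides, against 4.73% of all genes. These were OLE1 and IZH4, already described, IZH3 of the same family as IZH4, and the fatty acid genes FAS1 and ACC1, which did not pass. Other values were held by the acyl-CoA synthetases FAA1 (0.15 and 0.43, then -0.10 and -0.12) and FAA3 (0.30 and 0.29, then -0.23 and -0.10) and the elongase ELO1 (0.18 and 0.37, then -0.15 and -0.05). In these 3 of the 9 the Y18daft2 slides were above 0 and the aft1 slides below, against 6.75% of all genes. Without overlap, 3 of the 9 lay above and 3 below (33.3% each, against 16.9% and 16.6% of all genes). With centring alone 1 lay above and 1 below (11.1% each, against 8.67% and 7.93%). SPT23, an activator of OLE1, read 0.27 and 0.13, then -0.24 and 0.32, with overlapping slides.

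Among genes of iron uptake at the surface, 10 of 19 listed were measured, and ENB1 and FIT3 passed in the mean while the other 8 did not. The ferric reductases FRE2, FRE4, FRE5 and FRE6 had overlapping slides, with means from -0.31 for FRE6 to 0.20 for FRE4. FRE3, a reductase of siderophore-bound iron, read -0.33 and -0.19 in Y18daft2 and 0.22 and 0.04 in the aft1 strain. FIT2, a relative of FIT3 in the cell wall, read 0.31 and 0.12, then 0.37 and -0.28, with no common direction. The median difference of the list was -0.06, against -0.0027 for all 3127 genes, so the list as a whole lay close to the genes at large. In 3 of the 10 the Y18daft2 slides lay below without overlap and in 0 above, against 16.6% and 16.9% of all genes. With centring alone 1 lay below (10% against 7.93%). Values of the other members of the list, including those of the high-affinity iron permease complex, are not given here.

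The difference between the pairs was past the threshold for 1 of 3127 genes (0.032%), AFT1 itself, and 76 genes had an unadjusted p under 0.05 (2.43%). The count was 5 in a fit to the 4 slides in hydroxyurea alone and 12 when the channel trend was drawn from all columns. AFT1 read -0.29 and -0.06 in Y18daft2 and -2.78 and -3.31 in the aft1 strain. The aft1 slides were low and the Y18daft2 slides lay near 0, as did the rich-medium slides at -0.30 and 0.25. The difference was 2.87 (SE 0.288, 95% interval 2.21 to 3.53; limma adjusted p = 0.0175). AFT1 passed in the mean of both pairs as well, at -1.61, but only through the aft1 slides. Since AFT1 set the direction, its sign is no result. The difference did not pass without ALX035 (2.98, limma adjusted p = 0.082), ALX038 (2.76, 0.149) or ALX039 (2.41, 0.053), and passed without ALX037 (3.33, 0.00183).

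AFT2, deleted by its label in Y18daft2 and intact in the aft1 strain, read -0.13 and -0.22, then 0.20 and 0.54. The Y18daft2 slides were the lower without overlap, by -0.54 (SE 0.251), which did not pass (unadjusted p = 0.0608, limma adjusted p = 0.999). Neither AFT1 nor AFT2 passed as lower in the strain labelled as lacking both. Where on these genes the spots lie was not analysed here, and whether the label is right was not tested, so every value given for Y18daft2 is that of the strain so labelled.

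Differences of at least 1 on the log2 scale with slides that did not overlap were seen in 2 genes with Y18daft2 above (0.064%), AFT1 and CYC1, and in 6 with Y18daft2 below (0.192%). The 6 were AHA1, SMF3, PHO89, HSP26, YJR028W and CIT2. Apart from AFT1 none of them passed over all genes. Slides that did not overlap were common as such, with Y18daft2 above in 16.9% of all genes and below in 16.6%, together 33.5%.

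AHA1, a co-chaperone that stimulates the ATPase of Hsp90, read -1.45 and -1.48 in Y18daft2 and 0.03 and 0.21 in the aft1 strain. The Y18daft2 slides were low and close together, and the aft1 slides lay near 0. In Y18daft2 AHA1 fell 2.77-fold (-1.47; limma adjusted p = 0.0153), 1 of the 3 genes past the threshold in that pair (0.0959%) beside ENB1 and FIT3. The difference of -1.59 (SE 0.224, 95% interval -2.10 to -1.08) reached a limma adjusted p of 0.118 over all genes. In rich medium AHA1 read -0.25 and -0.35. Among the other 19 chaperone genes measured, Hsp90 itself (HSP82) read 0.17 and 0.00, then 0.31 and 0.43. The Y18daft2 slides of HSP82 were thus the lower without overlap, but by far less than those of AHA1. The Hsp90 co-chaperones SBA1, STI1 and CPR7 had overlapping slides. Of the 20 measured chaperone genes, 6 lay below without overlap and 3 above, against 16.6% and 16.9% of all genes. With centring alone 4 lay below (20% against 7.93%) and 1 above (5% against 8.67%). AHA1 without ALX038 in the Y18daft2 pair did not pass, nor did it without ALX035.

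PHO89, the sodium-coupled phosphate transporter, was the reverse case. It read 0.06 and -0.05 in Y18daft2 and 1.14 and 1.33 in the aft1 strain, so the aft1 slides alone were high. In the aft1 strain PHO89 rose 2.35-fold (1.23; limma adjusted p = 0.0476), 1 of 6 genes past the threshold in that pair (0.192%), beside AFT1, ENB1, FIT3, OLE1 and IZH4. Without ALX037 or without ALX039, AFT1 was the 1 gene past the threshold in that pair. The PHO89 difference was -1.23 (SE 0.246, 95% interval -1.79 to -0.66; limma adjusted p = 0.702). Of the 11 measured phosphate genes, 4 lay below in Y18daft2 without overlap and 1 above, against 16.6% and 16.9% of all genes. PHO5, the secreted acid phosphatase, read 0.02 and 0.04, then 0.06 and 0.13, and the regulators PHO2, PHO4, PHO80 and PHO81 had differences between -0.09 and 0.29. VTC4, of polyphosphate synthesis, was the one above, at 0.34 and 0.52, then -0.17 and -0.01 (difference 0.52). With centring alone 1 of the 11 phosphate genes lay below (9.09% against 7.93% of all genes) and 0 above (8.67%). As deposited 1 lay below (9.09% against 1.02%) and 2 above (18.2% against 15.7%).

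YJR028W, a Ty element reading frame, was much like PHO89, at -0.02 and 0.02, then 0.94 and 1.24 (difference -1.08, SE 0.234). For YJR028W 1 strong-scan zero in hydroxyurea was left out. Ty frames are near-identical copies, so a spot of this kind may report several of them. HSP26, a small heat shock protein, read -0.61 and -0.46, then 0.38 and 0.74, with opposite signs in the pairs (difference -1.10, SE 0.283). HSP12, a membrane-associated stress protein, had a difference of the opposite sign, at 0.30 and 0.81, then -0.52 and -0.20 (difference 0.91, SE 0.332). Neither passed (limma adjusted p = 0.999 for each).

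Genes at least 2-fold lower on both aft1 slides numbered 4 (0.128%). They were AFT1, ENB1, FIT3 and YMR315W, the last chosen after its values were seen, at -1.41 and 0.19 on the Y18daft2 slides and -1.31 and -1.19 on the aft1 slides. The Y18daft2 slides of YMR315W disagreed with each other. At least 2-fold higher on both aft1 slides were 3 genes (0.0959%), IZH4, OLE1 and PHO89. On both Y18daft2 slides 3 genes were at least 2-fold lower (0.0959%), ENB1, FIT3 and AHA1, and 0 were 2-fold higher.

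**Figure D3:**
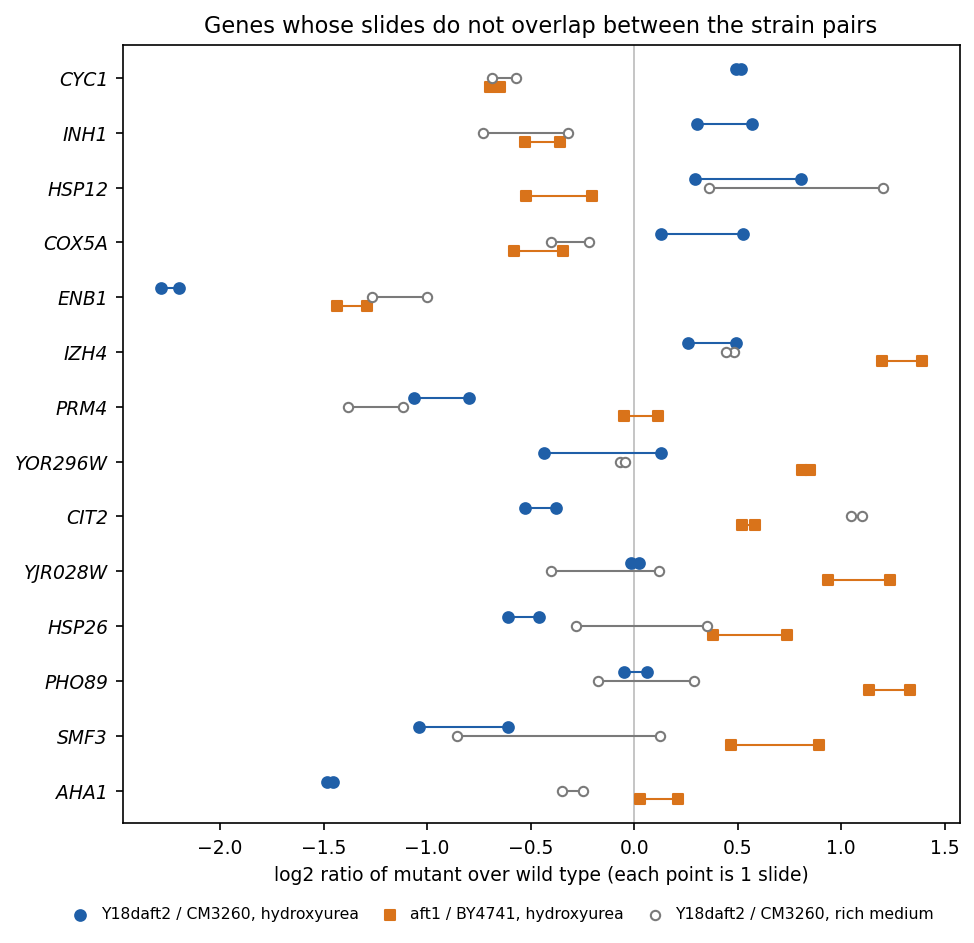
Log2 ratios of mutant over wild type, 1 point per slide, for 14 genes whose Y18daft2 and aft1 slides in hydroxyurea do not overlap, with the rich-medium slides of Y18daft2 as open circles. AHA1 is near -1.5 on both Y18daft2 slides, PHO89 and YJR028W are above 0.9 on the aft1 slides alone, and CYC1 has opposite signs in the pairs.

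Genes that move iron inside the cell held the clearest opposite signs of the iron lists. SMF3, which exports iron from the vacuole, read -1.04 and -0.61 in Y18daft2 and 0.47 and 0.89 in the aft1 strain. The Y18daft2 slides were low and the aft1 slides high, a difference of -1.50 (SE 0.353, unadjusted p = 0.00241, limma adjusted p = 0.999). Its rich-medium slides disagreed, at 0.12 and -0.86. FTH1, the vacuolar iron permease, read -0.48 and -0.26, then 0.76 and 0.17 (difference -0.84, SE 0.319). ISU2, a scaffold for iron-sulfur clusters, read -0.37 and -0.19, then 0.47 and 0.63 (difference -0.83, SE 0.238). The opposite signs of ISU2 were uneven between its spots, which gave differences of -0.25 and -1.41. MRS3 and MRS4, the mitochondrial iron importers, lay below without overlap by -0.48 and -0.43.

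CCC1, the importer that stores iron in the vacuole, had a difference of the opposite sign. It read -0.06 and 0.00 in Y18daft2 and -0.64 and -0.50 in the aft1 strain, so that the aft1 slides were the low ones (difference 0.54, SE 0.230). SMF3, FTH1, ISU2 and CCC1 were the 4 of 17 measured members of the list with an unadjusted p under 0.05, against 2.43% of all genes. In 5 members the Y18daft2 slides lay below without overlap and in 3 above, against 16.6% and 16.9% of all genes. The list median of -0.09 hid these opposite members. Frataxin (YFH1), the ferredoxin YAH1, TIS11, a protein that degrades transcripts of iron-using enzymes, and its relative CTH1 had overlapping slides, with differences between -0.09 and 0.03.

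The respiratory chain, whose complexes carry heme and iron-sulfur clusters, had list medians on opposite sides of 0 in the strain pairs, and 11 of 22 measured genes did so on every slide. The median of 22 measured members (of 27 listed) was 0.06 on ALX035 and 0.17 on ALX038, and -0.36 on ALX037 and -0.23 on ALX039. In rich medium the list median of the Y18daft2 pair was -0.23, on the side of the aft1 pair in hydroxyurea (-0.32). The sign in the Y18daft2 pair was therefore not the same in both media. The Y18daft2 slides lay above the aft1 slides without overlap in 13 members and below in 0, against 16.9% and 16.6% of all genes. In the 11 members both Y18daft2 slides were above 0 and both aft1 slides below (6.75% of all genes), and in 0 the reverse (5.5%). Of the others, SDH1, SDH2 and SDH3 were below 0 on all 4 slides and NDE2 above. The list had a median difference of 0.32, and 20 of 22 differences were above 0, against 1544 of 3127 genes. At an unadjusted p under 0.05 there were 6 members, all of them higher in Y18daft2. None passed over all genes, so the pattern is one of counts and not of single calls.

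CYC1, the main isoform of cytochrome c, had the largest difference of the list. It read 0.49 and 0.52 in Y18daft2 and -0.65 and -0.70 in the aft1 strain. The slides of each pair lay close together, and the pairs on opposite sides of 0 (difference 1.18, SE 0.220, 95% interval 0.67 to 1.68; unadjusted p = 0.00056, limma adjusted p = 0.584). In rich medium Y18daft2 read -0.69 and -0.57, at the level of the aft1 slides in hydroxyurea.

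Nuclear subunits of cytochrome c oxidase followed CYC1. COX5A read 0.13 and 0.53, then -0.34 and -0.58 (difference 0.79, SE 0.245). COX12 read 0.32 and 0.50, then -0.34 and -0.33 (difference 0.75, SE 0.226), with 1 strong-scan zero left out. COX9 read 0.13 and 0.22, then -0.40 and -0.75 (difference 0.75, SE 0.265), and COX7 and COX13 had the same signs with differences of 0.64 and 0.54. COX6 (-0.08 and -0.01, then 0.42 and -0.34) and COX8 (0.35 and -0.47, then -0.40 and -0.23) had overlapping slides.

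In the bc1 complex RIP1, the Rieske iron-sulfur protein, read 0.06 and 0.38, then -0.38 and -0.52 (difference 0.67, SE 0.233). QCR8, QCR9 and cytochrome c1 (CYT1) had the same signs, with differences of 0.48, 0.35 and 0.29. COR1 read 0.00 and -1.06, then -0.49 and -0.18, and its Y18daft2 slides disagreed. Succinate dehydrogenase was mixed. SDH4, a membrane anchor, read 0.06 and 0.19, then -0.23 on both slides. SDH2, the iron-sulfur subunit, was below 0 on all 4 slides (-0.18 and -0.54, then -0.52 and -0.35). The NADH dehydrogenases NDI1, NDE1 and NDE2, which in this yeast stand in for complex I, had overlapping slides.

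**Figure D4:**
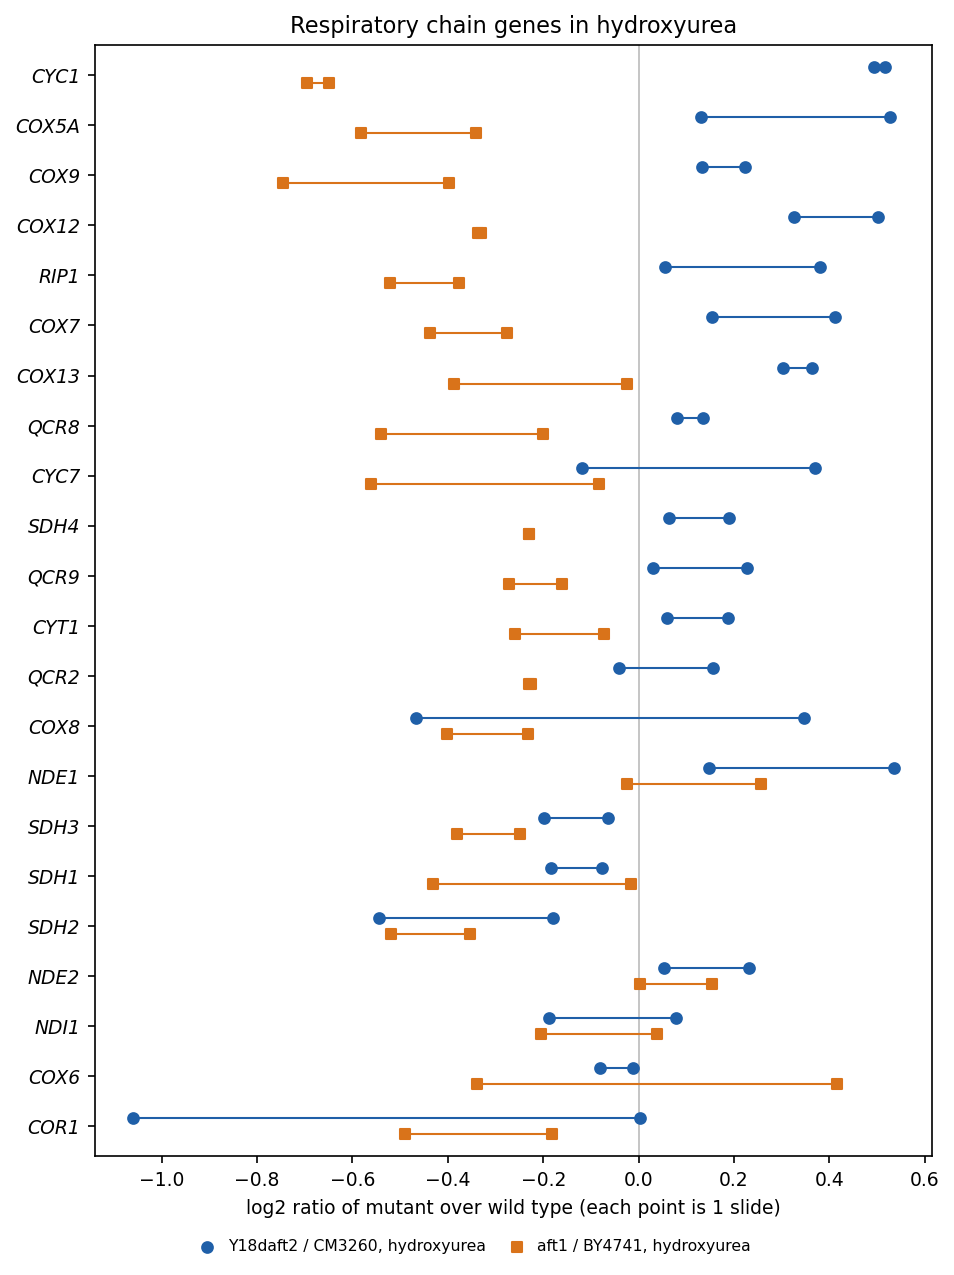
Log2 ratios of mutant over wild type in hydroxyurea, 1 point per slide, for the 22 measured respiratory chain genes, ordered by their difference. The rich-medium slides are not drawn. In 13 members the Y18daft2 slides (circles) all lie to the right of the aft1 slides (squares), while COX6, COR1 and the NADH dehydrogenases overlap.

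Without each of the 4 slides in turn, the median difference of the respiratory list was 0.40 (without ALX035), 0.40 (without ALX038), 0.22 (without ALX037) and 0.42 (without ALX039). As deposited, with no centring or trend removal, it was 0.60 beside an all-gene median of 0.21, and 11 members lay above without overlap and 0 below, where 15.7% of all genes lay above and 1.02% below. If the columns are instead taken as already turned to mutant over wild type, the median is 0.0083. The ATP synthase genes, a list added after the values were seen, had a median difference of 0.37 over 11 members. Their median in the Y18daft2 pair was 0.15 in hydroxyurea and -0.21 in rich medium, beside -0.20 in the aft1 pair. Of the 11 members, 7 lay above without overlap and 1 below, against 16.9% and 16.6% of all genes. With centring alone 3 of the 11 lay above (27.3% against 8.67%) and 0 below (7.93% of all genes). INH1, the inhibitor of that enzyme's ATP hydrolysis, read 0.30 and 0.57, then -0.53 and -0.36 (difference 0.88, SE 0.251). In whole cultures a change in every cell and a change in the share of cells cannot be told apart.

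Genes listed with the citrate cycle, among them CIT2 for a peroxisomal enzyme, did not share that direction. CIT2, the peroxisomal citrate synthase of the retrograde response, read -0.53 and -0.38 in Y18daft2 and 0.52 and 0.58 in the aft1 strain. The pairs lay on opposite sides of 0, with Y18daft2 below (difference -1.003, SE 0.221, 95% interval -1.51 to -0.50; unadjusted p = 0.00163, limma adjusted p = 0.848). In rich medium Y18daft2 was high instead, at 1.10 and 1.04. IDH1 and IDH2, the subunits of isocitrate dehydrogenase, also had Y18daft2 below without overlap. IDH1 read -0.16 and -0.22, then 0.37 and 0.59, and IDH2 0.09 and 0.10, then 0.54 and 0.52. As deposited and with centring alone, 0 of the 8 measured members of the list lay below without overlap (1.02% and 7.93% of all genes). The remaining 5 of 8 measured members had overlapping slides, and CIT1, the mitochondrial citrate synthase, read -0.37 and 0.92 on the Y18daft2 slides. Heme synthesis had 5 measured members with differences between 0.10 and 0.29, of which HEM13, the oxygen-dependent coproporphyrinogen oxidase, was above 0 on all 4 slides (0.26 and 0.55, then 0.12 and 0.10).

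Genes of DNA replication and its checkpoint, the direct setting of hydroxyurea, did not pass in the difference or the mean. RNR2 and RNR4, the small subunits of ribonucleotide reductase that hold its iron centre, read -0.11 and 0.25, then 0.33 and 0.11, and 0.15 and 0.17, then 0.23 and 0.28. Their differences of -0.14 (SE 0.256) and -0.09 (SE 0.227) were below their errors. The 14 measured members had a median difference of -0.10, with 6 below without overlap and 0 above, against 16.6% and 16.9% of all genes. The 4 largest of these were CDC9, DNA ligase, at -0.43, MAG1, a DNA glycosylase, at -0.41, RFA2, of the single-strand binding protein, at -0.41, and DDC1, a checkpoint clamp subunit, at -0.35. As deposited, 0 of the 14 lay below without overlap, but so few genes did (1.02%) that this count says little. With centring alone 3 of the 14 lay below (21.4% against 7.93%). The kinases MEC1, RAD53 and DUN1 had overlapping slides.

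Genes that mark strains or mating were read beside these. LYS2, of lysine synthesis, read -0.68 and -0.55 in Y18daft2 and -0.04 and 0.01 in the aft1 strain (difference -0.60, SE 0.220), with -0.01 and -0.04 in rich medium. PRM4, a pheromone-responsive gene, read -0.80 and -1.06, then -0.05 and 0.11, and was low in rich medium at -1.38 and -1.12. The Y18daft2 slides of PRM4 were low in both media and the aft1 slides near 0 (difference -0.96, SE 0.239; limma adjusted p = 0.999). Of 13 measured genes of the pheromone pathway, 12 had differences below 0, against 1583 of 3127 genes, with a median of -0.14. In 6 of the 13 the Y18daft2 slides lay below without overlap, against 16.6% of all genes. As deposited, 1 of the 13 did, against 1.02% of all genes, and with centring alone 3 did (23.1% against 7.93%).

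Genes specific to mating type gave slides that disagreed within a pair. STE3, the receptor for a-factor, read -0.58 and 0.31 in Y18daft2 and 0.84 and -0.25 in the aft1 strain. The 5 genes specific to alpha cells had medians of -0.58 and 0.20, then 0.75 and -0.19, so their signs changed with the slide in each pair. The alpha-cell agglutinin SAG1 (-0.77 and 0.04, then 0.88 and 0.31) was the 1 member without overlap. The 4 genes specific to a cells all overlapped. The part of mating type in the differences was not tested.

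**Figure D5:**
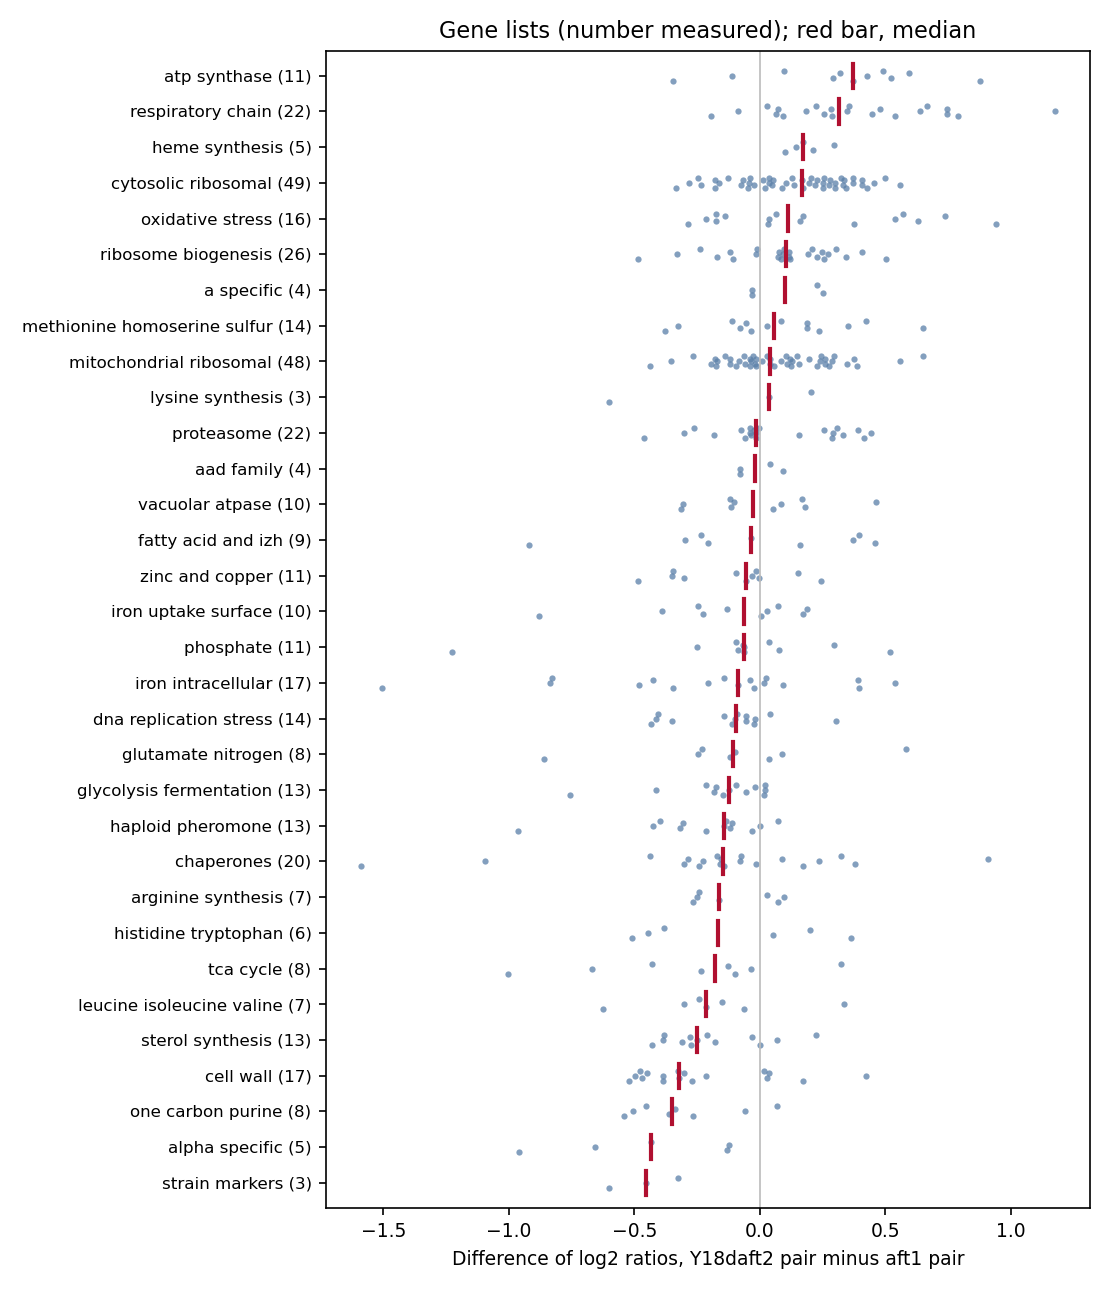
Differences of log2 ratios, Y18daft2 pair minus aft1 pair in hydroxyurea, for the measured members of each gene list (1 point per gene, number of genes in parentheses, red bar at the median). ATP synthase and respiratory chain genes lie mostly above 0, at medians of 0.37 and 0.32, while AHA1, SMF3, PHO89 and CIT2 are the lowest points of their lists.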

How the data were processed

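Per the labels' protocols, each slide carried 2 indirectly labelled total RNA samples, extracted with the RNeasy kit, and channels were exchanged between the slides of a strain pair. The deposited values, read as log2 ratios between channels, cover 6912 spots in a strong and a weak scan of each slide. The steps by which the authors made these log2 values are not given in the sources used here. Spot intensities were not used, so signal over background is unknown, and the number of slides limits the precision. Gene names came from the platform annotation. Of 6912 spots, 3344 carried 1 gene symbol, 387 several and 3181 none, and 207 of 3127 genes had more than 1 spot, which were averaged. Older list symbols were updated through RefSeq's gene table (assembly R64).

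Exact zeros of strong scans, 623 of 41472 values, were set to missing. Among them, in hydroxyurea, were 1 value each of OLE1, COX12, YJR028W, PRM4 and FAS1 and 2 values of SED1. The slide concerned then rests on its weak scan alone. Columns were median-centred, and from each a loess curve (span 0.3) on the mean of the columns of the other comparisons was subtracted. Scans were averaged per slide and turned to mutant over wild type. limma 3.58.1 in R 4.3.3 fitted 3 comparisons and a channel coefficient over 6 slides, leaving 2 residual degrees of freedom (6.525 prior). Benjamini-Hochberg adjustment ran over 3127 genes with a threshold of 0.05. Intervals are 95% intervals from the fit. The fit was tested on simulated data. Nothing says that slides came from separate cultures, so p-values measure only the spread between slides, which may be technical.

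Genes named are AFT1 and AFT2, genes past the threshold in the difference, the mean or either pair, the 12 highest and 12 lowest without overlap (difference) or of one sign on all 4 slides (mean), and in each list the members with an unadjusted p under 0.05, or otherwise its 2 highest and 2 lowest. Further list members are given where the text sets them beside these. The members, lists and processing were chosen with earlier results of these data known. The lists of ribosomal, ATP synthase and vacuolar ATPase genes, and 3 of 20 alternatives, were added after the values were seen. No sequences or coordinates are given.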

Additional observations from a re-analysis of the deposited data

Results flagged for a closer look

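The difference of AFT1 between the strain pairs, 2.87 on the log2 scale, was the 1 difference past the threshold by limma's test of the difference itself. AFT1 was low on both slides of the aft1 strain (-2.78 and -3.31) and near 0 on both slides of Y18daft2 in hydroxyurea (-0.29 and -0.06), although both mutants are labelled as lacking the gene. Whether the spot lies inside the part deleted in Y18daft2 was not tested. With 2 slides a pair, no slide could be tested for standing apart from its group.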

How the results depend on the processing

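Counts of genes past the threshold are given as difference, mean, Y18daft2 pair and aft1 pair, with 1, 5, 3 and 6 in the processing described. They became 1, 3, 2 and 3 as deposited, 1, 3, 2 and 5 with centring alone, 0, 2, 1 and 0 with strong scans only (49 and 74 genes at an unadjusted p under 0.05 for the counts of 0), 3, 6, 4 and 8 with weak scans only, 2, 6, 2 and 6 without the channel coefficient, and 0, 2, 4 and 4 with all columns and slide as a random block (203 for the difference). With only the 4 slides in hydroxyurea they were 5, 11, 7 and 15, and the 5 were AFT1, AHA1, CYC1, PHO89 and SMF3. Leaving out ALX034 or ALX036 gave these same counts. With columns taken as already turned all 4 counts were 0 (299, 52, 238 and 126 genes at an unadjusted p under 0.05), OLE1 in the mean turned to -0.067 and IZH4 to -0.0097. With the trend drawn from all columns, an alternative chosen after the data were seen, counts were 12, 13, 5 and 44. With centred print blocks, zeros kept, an axis from weak scans or a loess span of 0.5, chosen likewise for the last pair, every count stayed within 1.5 times, as it did for genes measured on all 4 slides, which were the same 3127. Without 1 slide the counts ranged from 0 to 5 (difference), 3 to 11 (mean), 1 to 7 (Y18daft2) and 1 to 15 (aft1). The difference had 0 genes without ALX035, ALX038 or ALX039 (237, 159 and 67 at an unadjusted p under 0.05). In such fits the lone slide is assumed to vary like the others. AFT1 passed in the difference under 14 of 20 alternatives, AHA1 under 6, CYC1, PHO89 and SMF3 under 4 each. The fit to the 4 slides and those without ALX034 or ALX036 gave the same values, so they count as 1 fit. The list medians of the respiratory chain, ATP synthase and pheromone genes kept their sign under 19 alternatives, the one with columns taken as already turned left out. That of cell wall genes, -0.32, became 0.056 without ALX038 and 0.065 as deposited. The causes of these shifts were not tested. No paired analysis was possible because the strain pairs share no replicate numbers.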

Other observations

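Genes beside the deleted loci in the R64 gene order were read for the same contrast. Of 6 measured genes within 3 places of AFT2, HRR25, a casein kinase, had the largest difference, at -0.71, with -0.74 and 0.06 in Y18daft2 and 0.32 and 0.43 in the aft1 strain, so that its Y18daft2 slides disagreed. The measured neighbours of AFT1 had differences between -0.14 for HSF1 and 0.31 for MNP1.

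Cell wall genes lay below in Y18daft2 without overlap in 8 of 17 measured members and above in 1, against 16.6% and 16.9% of all genes. Their median difference was -0.32. SED1, a structural mannoprotein, read 0.27 and -0.27, then 0.36 and 0.68, while in rich medium it read 1.59 and 1.56. As deposited, 0 of the 17 were without overlap in either direction, where 15.7% of all genes lay above and 1.02% below. With centring alone 1 of the 17 lay below (5.88% against 7.93%). Genes of 1-carbon and purine synthesis had a median difference of -0.35 over 8 members. Under 19 alternatives, columns taken as already turned left out, that median ran from -0.48 to 0.02. Of the 8, 3 lay below without overlap and 1 above (37.5% and 12.5%, against 16.6% and 16.9% of all genes). As deposited and with centring alone, 0 of the 8 were without overlap. Cytosolic ribosomal genes, a list added after the values were seen, had a median of 0.17 over 49 members, with 18 above and 5 below (36.7% and 10.2%, against 16.9% and 16.6% of all genes). As deposited 3 of the 49 lay above (6.12% against 15.7%) and with centring alone 1 (2.04% against 8.67%). Mitochondrial ribosomal genes had a median of 0.04 over 48 members.

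Among genes of oxidative stress, SRX1, sulfiredoxin, was below 0 on all 4 slides (-0.25 and -0.13, then -1.27 and -0.59), and so was CCP1, cytochrome c peroxidase (-0.04 and -0.13, then -0.89 and -0.54). In both the aft1 slides were the lower ones, with differences of 0.74 and 0.63. MEP1, an ammonium transporter, read -0.13 and -0.22, then 0.77 and 0.61. Spots without a single gene name, 3568 in all, had 0 past the threshold in the difference (limma with Benjamini-Hochberg over 6912 spots, 121 at an unadjusted p under 0.05) and 7 in the mean, all lower.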
